A study of Homo sapiens with 8 samples.

Results

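The nuclear genes for the subunits of the oxidative phosphorylation machinery were examined in 8 RNA sequencing libraries of human prostate cancer cells. Members were taken by gene symbol: the numbered NDUFA, NDUFB, NDUFC, NDUFS and NDUFV genes, SDHA to SDHD, the listed complex III and IV genes, CYC1, CYCS, and symbols beginning with ATP5F1, ATP5M or ATP5P. The rule met 132 symbols, of which 51 pseudogenes were left out, and 81 of the 57905 genes in the table remained. Of these, 79 encode subunits and all 79 were tested. The other 2, the readthrough transcript ATP5MF-PTCD1 and the retrocopy ATP5MGL, did not pass the filter on low counts. The 79 genes comprise 37 of complex I, 4 of complex II, 9 of complex III, cytochrome c, 11 of complex IV (NDUFA4 included) and 17 of complex V.

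EnzaR is a prostate cancer line labelled resistant to enzalutamide, an antiandrogen drug, and was grown with 10 uM of the drug in the medium. Its cells received 40 nM of control siRNA (siNC, 2 libraries) or of siRNA against YAP1 (siYAP1, 2 libraries) for 48 h. LNCaP, an androgen-sensitive prostate cancer line, was grown in the same serum-containing medium without the drug. Its 4 libraries, 1 per group, are a vehicle control and cells given extracellular vesicles (EVs) for 48 h. The EVs were collected from EnzaR cells treated with control siRNA (EV-siNC) or depleted of YAP1 (EV-siYAP1) or of CII (EV-siCII). CII here stands for COUP-TFII, not for complex II of the respiratory chain. Nothing in the labels makes the replicates separate cultures. The p-values therefore reflect the variation among these libraries alone, and that variation may be technical.

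The respiratory chain sits in the inner mitochondrial membrane. Complexes I and II feed electrons from NADH and succinate to ubiquinone, complex III passes them to cytochrome c, and complex IV reduces oxygen. Complexes I, III and IV pump protons, and complex V, the ATP synthase, uses the return flow to make ATP. Most subunits are encoded in the nucleus and imported, while a small core set is encoded by mitochondrial DNA, and only complex II is wholly nuclear.

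Total counts were 16682669 to 18248939 per library. YAP1, the siRNA's target, was at 59.5 and 49.2 CPM (counts scaled to library size) with control siRNA and at 6.12 and 7.44 CPM with siYAP1, a log2 fold change of -3.02 (edgeR quasi-likelihood test, adjusted p = 2.07e-10). NR2F2, which encodes COUP-TFII (CII), lay between 43.8 and 53.4 CPM in all 8 libraries. No sequenced cells received siRNA against NR2F2, which was used only on the source cells of the EV-siCII vesicles. Luminal prostate markers were present in both lines: KLK3, KLK2 and TMPRSS2 were higher in EnzaR siNC than in LNCaP control, and KRT8, KRT18, HOXB13 and FOXA1 lower (edgeR). The 4 basal and 5 immune markers each summed to under 1 CPM in every library, with KRT5, TP63, PTPRC and CD3E at 0 throughout. The 5 fibroblast markers, mostly COL1A1, summed to 18.9 to 26.8 CPM in EnzaR and 102 to 119 CPM in LNCaP libraries, and the 4 neuroendocrine markers, mostly ENO2, to 29.5 to 37.6 and 123 to 187 CPM. Of the 2 endothelial markers matched, VWF was at 8.6 to 13.0 CPM and CDH5 at or near 0. COL3A1, COL1A2, DCN and LUM were at 0 in 3 EnzaR libraries but at 3.43, 0.354, 0.413 and 0.354 CPM in siYAP1 replicate 2. The part of these markers in the results below was not tested.

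Promoter sequences are shown for 4 genes that carry the main contrast between the lines: SDHB, SDHD and ATP5F1C, which were higher in EnzaR cells, and SDHA, which did not differ beyond the spread. Each is the 250 bases before the annotated start, 5′ to 3′ on the gene's strand, from RefSeq (GRCh38.p14). The windows are SDHA at chr5:218070-218319 (+), SDHB at chr1:17054033-17054282 (-), SDHD at chr11:112086623-112086872 (+) and ATP5F1C at chr10:7787927-7788176 (+). Capitals mark exact matches on either strand to the NRF1 motif, a palindrome of 10 bases, or the ETS motif CCGGAAGT, whose reverse complement is ACTTCCGG.
SDHA: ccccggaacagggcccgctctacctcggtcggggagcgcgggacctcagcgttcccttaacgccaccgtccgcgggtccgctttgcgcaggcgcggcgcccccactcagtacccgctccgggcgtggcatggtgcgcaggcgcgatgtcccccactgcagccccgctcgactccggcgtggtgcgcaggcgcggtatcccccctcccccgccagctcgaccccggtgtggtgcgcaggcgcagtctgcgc
SDHB: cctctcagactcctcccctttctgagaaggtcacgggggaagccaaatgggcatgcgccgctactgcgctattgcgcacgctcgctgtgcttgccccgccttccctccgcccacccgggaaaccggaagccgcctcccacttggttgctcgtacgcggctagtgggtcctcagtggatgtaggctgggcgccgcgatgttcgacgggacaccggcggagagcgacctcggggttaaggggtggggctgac
SDHD: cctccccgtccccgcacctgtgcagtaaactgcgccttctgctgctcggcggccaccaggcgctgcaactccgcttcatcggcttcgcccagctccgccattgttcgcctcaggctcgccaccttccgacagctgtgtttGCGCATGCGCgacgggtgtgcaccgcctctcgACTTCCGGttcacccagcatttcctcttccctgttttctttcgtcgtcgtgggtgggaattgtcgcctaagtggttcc
ATP5F1C: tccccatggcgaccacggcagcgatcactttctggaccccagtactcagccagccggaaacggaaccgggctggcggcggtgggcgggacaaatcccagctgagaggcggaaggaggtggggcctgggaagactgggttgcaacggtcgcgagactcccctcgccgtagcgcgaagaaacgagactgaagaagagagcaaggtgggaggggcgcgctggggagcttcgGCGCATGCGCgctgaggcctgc
SDHD had the NRF1 letters starting 110 bases and the ETS letters starting 78 bases before the start. ATP5F1C had the NRF1 letters 22 bases before it, and neither motif was in the printed windows of SDHA and SDHB.

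NRF1 and ETS factors of the GABP type are textbook regulators of respiratory chain genes. Promoter windows of 250 bases before to 50 after the start matched 65 of the 79 genes. The NRF1 letters were in 4 of the 65 (6.2%, against 1.36% of all 27305 promoters), in ATP5F1C, NDUFA8, NDUFB4 and SDHD. The ETS letters were in 10 (15.4%, against 4.44%), among them NDUFS1, SDHD and UQCRQ. The YY1 letters AAGATGGCG or their reverse complement CGCCATCTT were in 8 (12.3%, against 1.85%), including SDHB, where they lie after the start. The TEAD letters GGAATG or CATTCC, for the partners through which YAP1 binds DNA, were in 5 (7.7%, against 14.05%). The motifs do not overlap one another in the printed windows. Median GC content was 62.0% in these promoters and 58.3% in all. A match is a description of letters, not a bound site.

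Levels between genes were compared per length, on deposited FPKM averaged over the 8 libraries. In complex I, NDUFS5, an accessory subunit, was highest at 566 over both lines (NDUFB7, another, was highest in LNCaP, at 321 against 302) and NDUFA5, also accessory, was lowest at 1.9 FPKM. SDHC, which anchors complex II in the membrane, was at 84.9 FPKM and SDHD, its partner, at 10.0. UQCRQ and UQCRB, both small subunits of complex III, were at 229 and 8.05 FPKM. In complex IV, COX8A, a small accessory subunit, was at 734 FPKM and COX7B, another, at 23.8. ATP5F1B, the catalytic beta subunit of complex V, was at 704 FPKM, and ATP5PD, of the peripheral stalk, at 21.3. The order of such levels depends on the length used, which is exonic length over all annotated transcripts: for NDUFA5 it was 9851 bases. All other levels below are CPM, scaled by TMM over the 8 libraries and compared within a gene only, except where a value is given per length.

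More subunit transcripts were higher than lower in EnzaR against LNCaP cells, and subunits of 1 complex did not move alike. Between EnzaR siNC (n = 2) and LNCaP control (n = 1), 48 of 79 members were higher in EnzaR and 5 lower at an adjusted p under 0.05 (edgeR quasi-likelihood test). Of all 16777 genes tested, 30.9% were higher and 29.4% lower, and 60.2% passed in either direction. The median log2 fold change was 0.50 over members and 0.02 over all genes. The spread came from the EnzaR replicates, and the lone control library was assumed to vary like them. Without siNC replicate 1, 47 members were higher and 1, ATP5MC2, was lower, with the spread then taken from the 2 siYAP1 libraries alone. With all 8 libraries in the comparison 68 members were higher and 1 lower, with a member median of 0.81. More genes passed everywhere in that fit: 6315 were higher and 6514 lower, of 17537 tested. Cell line, drug in the medium and transfection cannot be told apart here. In bulk samples, a smaller share of cells and less RNA per cell also cannot be told apart.

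**Figure D1:**
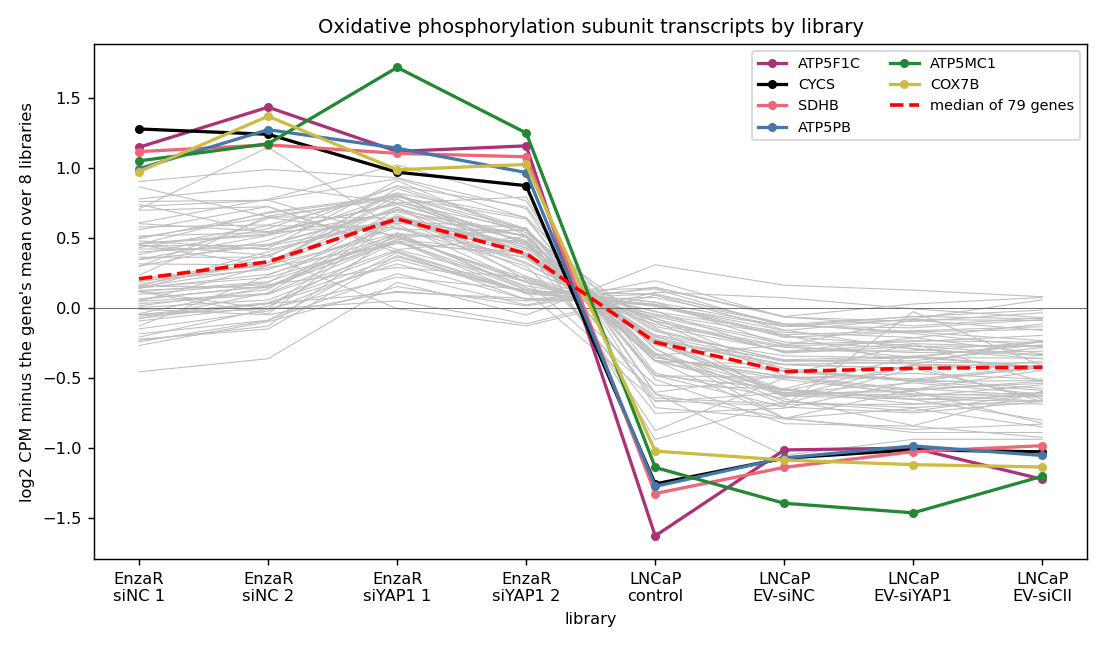
Log2 CPM of each of the 79 subunit genes minus that gene's mean over the 8 libraries (y axis) by library (x axis), with 6 genes in colour, the others in grey and the median as a dashed red line. All 6 coloured genes lie above 0 in the 4 EnzaR libraries and below it in the 4 LNCaP libraries, and the median is highest in siYAP1 replicate 1.

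The same direction was seen over all libraries. In 61 of 79 members (77.2%) all 4 EnzaR libraries lay above all 4 LNCaP libraries, against 32.7% of all genes tested. The reverse held for 0 of 79, against 31.2%. Members took 1.76% to 1.98% of all counts in EnzaR and 1.33% to 1.46% in LNCaP libraries. The 18 genes whose libraries overlapped included SDHA, SDHC, ATP5F1B, ATP5F1D, COX8A and all 5 genes called lower.

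In complex I, which oxidises NADH, 22 of 37 members were higher and 2 lower, with a median log2 fold change of 0.50. NDUFS1, a core iron-sulfur subunit of the electron-input arm, was at 109, 111, 89.7 and 95.6 CPM in EnzaR (siNC 1 and 2, siYAP1 1 and 2, the order used throughout). It was at 36.6, 47.5, 48.6 and 47.2 CPM in LNCaP (control, EV-siNC, EV-siYAP1, EV-siCII, the order used throughout). All EnzaR libraries lay above all LNCaP libraries, and the log2 fold change was 1.56 (SE 0.136, adjusted p = 1.26e-10, edgeR). NDUFS4, an accessory subunit of the same arm, was at 34.8, 47.2, 31.4 and 31.3 CPM in EnzaR and at 11.1, 13.4, 13.0 and 13.5 CPM in LNCaP. These did not overlap either, with a log2 fold change of 1.85 (SE 0.191, adjusted p = 2.94e-09, edgeR). Corrected for GC content and length, NDUFS1 was at 1.23 and NDUFS4 at 0.84 (adjusted p = 2.52e-09 and 0.000189, edgeR). NDUFV1, the core subunit that binds FMN and takes electrons from NADH, was at 272 and 306 CPM in siNC and 363 CPM in control, and fell by 0.36 on the log2 scale (adjusted p = 0.0105, edgeR). That call was lost once GC content and length were corrected for (0.03, adjusted p = 0.819) and with all 8 libraries (-0.12, adjusted p = 0.115), both by edgeR. With the siYAP1 libraries at 364 and 331 CPM and the EV libraries at 314 to 345 CPM, the lines overlapped for NDUFV1. NDUFB11, of the membrane arm, also overlapped between the lines and was 0.33 lower on the log2 scale in siNC than in control (adjusted p = 0.0282, edgeR), a call lost with the same correction (-0.17, adjusted p = 0.142) and, with the sign turned, with all 8 libraries (0.05, adjusted p = 0.602).

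The 4 genes of complex II, succinate dehydrogenase, were divided. SDHB (ENSG00000117118, chromosome 1, 17345217 to 17380665, hg19), its iron-sulfur subunit, was at 118, 122, 117 and 115 CPM in EnzaR and at 21.7, 24.7, 26.7 and 27.5 CPM in LNCaP. The groups were far apart and each was narrow, and the fold change was 5.42 (log2 2.44, SE 0.143, adjusted p = 3.41e-14, edgeR). SDHD, a membrane anchor, was at 35.6, 30.7, 30.5 and 26.1 CPM in EnzaR and at 11.6 to 13.6 CPM in LNCaP, without overlap (log2 fold change 1.48, adjusted p = 7.87e-08, edgeR). SDHA, the flavoprotein that oxidises succinate, was at 248, 264, 279 and 271 CPM in EnzaR and at 262, 231, 245 and 269 CPM in LNCaP. These overlapped, and its log2 fold change of -0.06 (SE 0.115, adjusted p = 0.664, edgeR) did not pass. SDHC, the other anchor, was at -0.02 (SE 0.118, adjusted p = 0.907, edgeR). With GC content and length corrected for, SDHC passed as lower, at -0.91 (adjusted p = 2.83e-08, edgeR), and SDHA did not pass, at 0.23 (adjusted p = 0.0609, edgeR). SDHD was then at 0.93 (adjusted p = 4.44e-05, edgeR).

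In complex III 7 of 9 members were higher and UQCR11, a small subunit, was lower (log2 -0.36, adjusted p = 0.0128, edgeR). With all 8 libraries UQCR11 was at 0.04 (adjusted p = 0.655, edgeR). UQCRC2, a core protein, was at 257, 265, 220 and 229 CPM in EnzaR and 97.8 to 102 CPM in LNCaP, without overlap (log2 fold change 1.39). Corrected for GC content and length, UQCRC2 was at 0.65 (adjusted p = 5.3e-06, edgeR). CYCS (ENSG00000172115, chromosome 7, 25159710 to 25164980, hg19), cytochrome c, the mobile carrier between complexes III and IV, was at 192, 187, 155 and 145 CPM in EnzaR and at 33.1, 37.6, 39.2 and 38.8 CPM in LNCaP. The lines did not overlap, and CYCS was 5.61-fold higher in siNC than in control (log2 2.49, SE 0.138, adjusted p = 1.00e-14, edgeR).

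Complex IV, cytochrome c oxidase, had the lowest median of the complexes, 0.09, with 4 of 11 members higher and 1 lower. COX7B, an accessory subunit, stood apart at 111, 146, 112 and 115 CPM in EnzaR against 25.7 to 27.8 CPM in LNCaP (log2 fold change 2.18, SE 0.158, adjusted p = 2.82e-12, edgeR). COX6A1, another accessory subunit, was at 299 and 320 CPM in siNC and 389 CPM in control, and was lower by 0.36 on the log2 scale (adjusted p = 0.0112, edgeR). Over all 8 libraries COX6A1 overlapped between the lines and was at -0.02 (adjusted p = 0.766, edgeR). NDUFA4, first described as a complex I protein and now placed in complex IV, was at 218, 207, 159 and 146 CPM in EnzaR and 170, 143, 130 and 126 CPM in LNCaP. These ranges overlapped, and its log2 fold change was 0.29 (adjusted p = 0.0375, edgeR), a call lost without siNC replicate 1 (adjusted p = 0.172) or 2 (adjusted p = 0.079). Its paralog NDUFA4L2, outside the rule and known as induced by hypoxia, was at 1.97 to 2.96 CPM in EnzaR but at 271, 267, 150 and 110 CPM in LNCaP.

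In complex V 12 of 17 members were higher and 1 lower, with a median of 0.79. ATP5F1C (ENSG00000165629, chromosome 10, 7830092 to 7849778, hg19), the gamma subunit that forms the rotating shaft, was at 146, 178, 143 and 147 CPM in EnzaR and at 21.3, 32.6, 32.9 and 28.2 CPM in LNCaP. Its fold change was 7.44 (log2 2.90, SE 0.155, adjusted p = 4.64e-15, edgeR), the largest of the 79 genes here, while ATP5MC1 was largest with all 8 libraries (log2 2.58 against 2.41) and with GC content and length corrected for. The alpha and beta subunits of the catalytic head around that shaft did not pass in this comparison. ATP5F1A, the alpha subunit, was at 0.21 (adjusted p = 0.119) and ATP5F1B, the beta subunit, at -0.14 (adjusted p = 0.328) on the log2 scale by the same edgeR test. For ATP5F1A, at 1103, 1135, 1236 and 1178 CPM in EnzaR and 945, 837, 856 and 883 CPM in LNCaP, the lines did not overlap. Its log2 value was 0.38 with all 8 libraries, but -0.06 with GC content and length corrected for (adjusted p = 0.629, edgeR). With GC content and length corrected for, ATP5F1B was lower, at -0.37 (adjusted p = 0.00129, edgeR). ATP5PB, the b subunit of the peripheral stalk, was at 207, 251, 229 and 203 CPM in EnzaR and 42.9 to 52.4 CPM in LNCaP (log2 fold change 2.39, SE 0.147, adjusted p = 9.19e-14, edgeR).

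ATP5MC1, ATP5MC2 and ATP5MC3 encode the same mature subunit c of the membrane ring and differ in their targeting sequences, and the first 2 moved in opposite directions between the lines. ATP5MC1 was at 236, 257, 375 and 271 CPM in EnzaR and 51.7, 43.3, 41.3 and 49.5 CPM in LNCaP, 2.22 higher on the log2 scale (SE 0.160, adjusted p = 2.34e-12, edgeR). ATP5MC2 was at 269, 287, 419 and 356 CPM in EnzaR and 457, 413, 403 and 390 CPM in LNCaP, and fell by 0.75 in siNC against control (SE 0.119, adjusted p = 4.32e-06, edgeR). Its highest EnzaR library, siYAP1 replicate 1, overlapped the LNCaP range. ATP5MC3 was 0.79 higher on the log2 scale (adjusted p = 3.41e-06, edgeR), but at 0.15 with GC content and length corrected for (adjusted p = 0.249). Per length (CPM over exonic length), ATP5MC1 made up 41.5% to 45.7% of the sum of the 3 genes in EnzaR and 11.2% to 13.3% in LNCaP libraries. ATP5MC2 made up 31.8% to 35.7% and 68.7% to 71.8%.

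**Figure D2:**
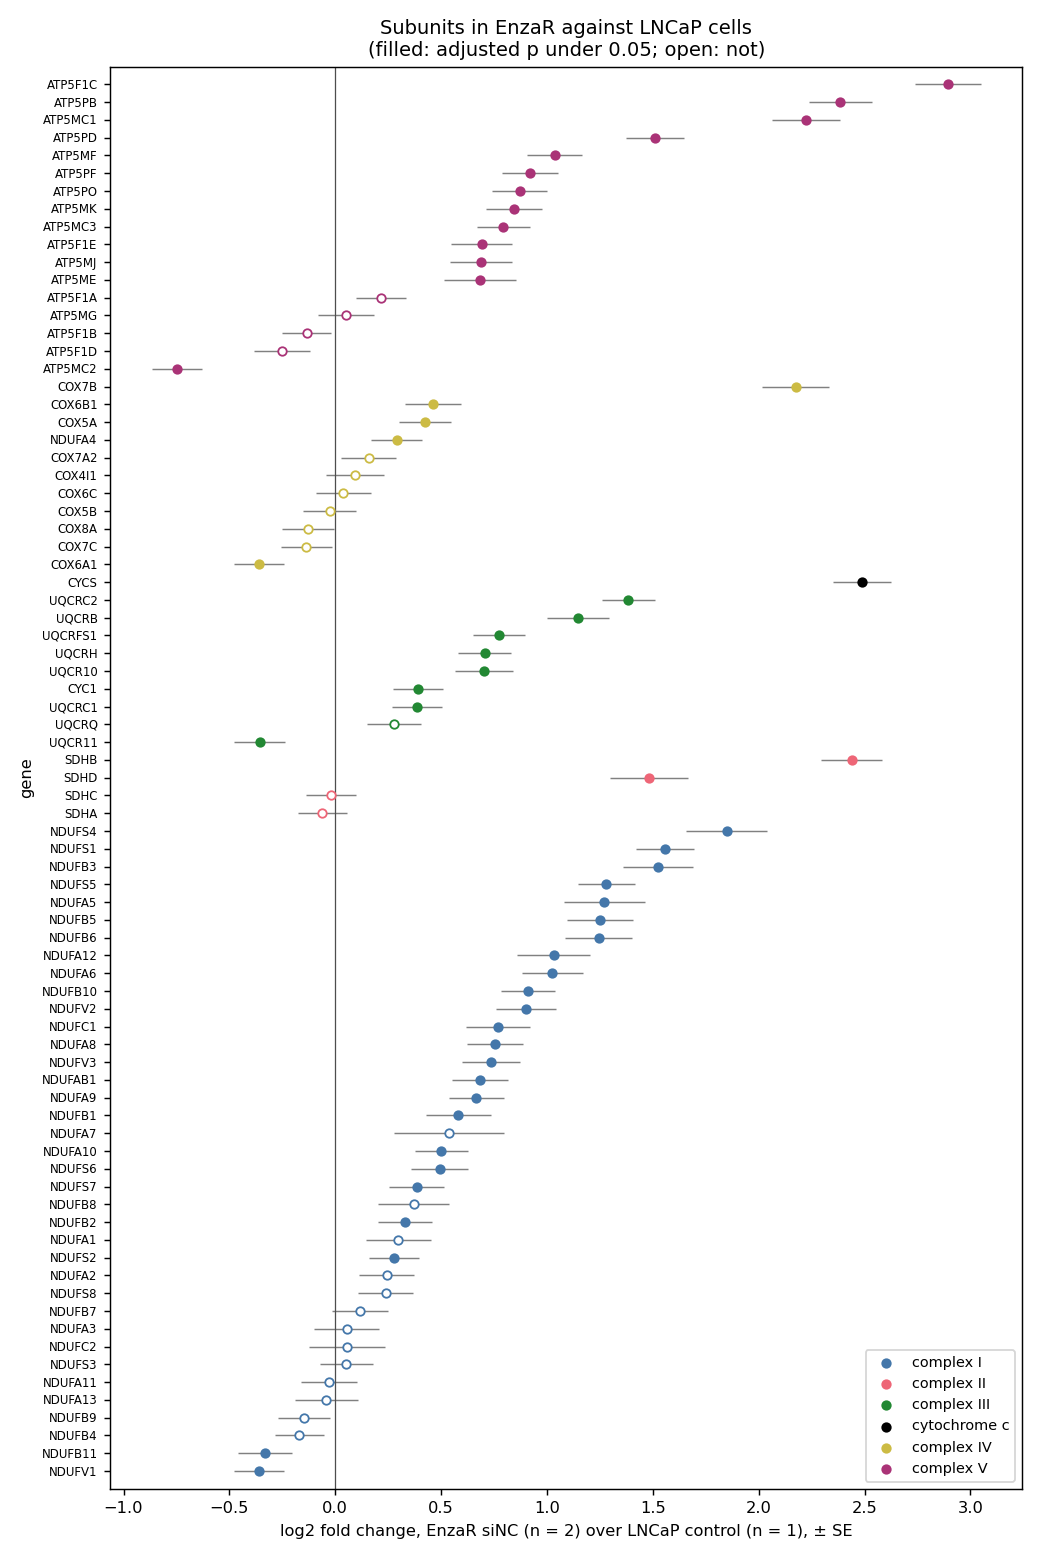
Log2 fold change of EnzaR siNC (n = 2) over LNCaP control (n = 1) on the x axis with its SE as bars, for 79 genes on the y axis grouped by complex, with filled points at an adjusted p under 0.05. ATP5F1C, CYCS, SDHB, ATP5PB, ATP5MC1 and COX7B lie above 2, while SDHA, SDHC and ATP5F1B lie near 0.

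The fold changes moved with the GC content of the transcripts. Spearman's rho across members, which share the libraries, was -0.48, and across all genes -0.43. The 39 members above the median GC content had a median of 0.30 on the log2 scale, and the other 40 of 0.86. Once GC content and length were corrected for, 35 of 79 members were higher and 14 lower, with a median of 0.25 beside -0.12 for all genes. Of all 16282 genes in that fit, 4052 were higher and 5199 lower. The largest changes were smaller but still passed by the edgeR test: ATP5MC1 at 2.10, SDHB at 1.86, ATP5F1C at 1.86, ATP5PB at 1.64, CYCS at 1.59 and COX7B at 1.10 on the log2 scale. COX7C and NDUFA4, complex IV genes with a GC content of 41.1% and 40.0%, went from -0.14 to -1.33 and from 0.29 to -0.91. In all, 7 of the 53 called members changed sign. How much of the pattern belongs to GC content was not tested.

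Other mitochondrial genes, from lists of the pathway, were also compared between EnzaR siNC and LNCaP control. Of 75 mitochondrial ribosomal proteins 65 were higher and 2 lower, and MRPL3 was 2.44 higher on the log2 scale (adjusted p = 1.6e-13, edgeR). Of 17 genes of the tricarboxylic acid cycle and pyruvate dehydrogenase 11 were higher and 0 lower. They include FH, fumarase, which acts after succinate dehydrogenase in the cycle, at 2.51 (adjusted p = 1.12e-13, edgeR). Of 50 assembly factors 29 were higher and 6 lower, with COA6, a complex IV copper factor, at 3.15 (adjusted p = 2.51e-12, edgeR). Of 14 regulators of mitochondrial gene expression 7 were higher and 2 lower. TFB2M, a mitochondrial transcription factor, was at 2.19 and TFAM, which packages mitochondrial DNA, at 1.31. The 7 include PPARGC1A on very few counts, at 0.273 and 0.665 CPM in siNC and 0 in control (SE 2.264 on the log2 scale). Of the 13 mRNAs encoded by mitochondrial DNA 5 were higher and 0 lower, among them MT-ATP6, subunit a of complex V, at 1.04. Each of these counts stands beside the 30.9% of all genes that were higher and the 29.4% that were lower. The counts and values for these lists are without the GC and length correction.

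The comparison within EnzaR cells asks which transcripts differ when YAP1 is depleted. Of 79 members 9 rose and 2 fell at an adjusted p under 0.05 (edgeR), 11.4% and 2.5% of them, against 5.83% and 6.22% of the 14948 genes tested and 12.1% in either direction. The median log2 fold change was 0.18 over members and -0.03 over all genes. No call remained without siYAP1 replicate 1: 0 members rose and 0 fell, 0.166% of all genes passed, and the member median was 0.04. Then 51 of 79 members lay above 0 on the log2 scale, against 61 with all 4 libraries, and the median of all genes was -0.032. Members above 0 numbered 64 without siYAP1 replicate 2, 58 without siNC replicate 1 and 64 without siNC replicate 2. The medians of all genes were -0.036, -0.015 and -0.016 in these fits.

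The 2 members that fell were an electron carrier and a complex IV subunit. NDUFA4 (ENSG00000189043) stood at 218 and 207 CPM in siNC, against 159 and 146 CPM in siYAP1, a mean of 213 ± 7.88 against 152 ± 9.04 CPM (SD, n = 2). Both siYAP1 libraries lay below both siNC libraries, and NDUFA4 fell by 0.51 on the log2 scale (SE 0.095, adjusted p = 0.00331, edgeR). CYCS had a mean of 190 ± 3.81 CPM in siNC libraries and 150 ± 7.24 CPM in siYAP1 libraries (SD, n = 2), without overlap, and fell by 0.37 (SE 0.094, adjusted p = 0.0179, edgeR). Without siYAP1 replicate 1 the values were similar, -0.58 for NDUFA4 and -0.43 for CYCS, with adjusted p of 0.0657 and 0.128 (edgeR). With GC content and length corrected for they were -0.27 and -0.15, with adjusted p of 0.0783 and 0.317 (edgeR).

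The 9 members that rose came from complexes I, III and V. NDUFA13, a complex I subunit also known as GRIM-19, stood at 56.6 and 65.1 CPM in siNC, against 104 and 79 CPM in siYAP1. It had the largest rise, 0.56 on the log2 scale (SE 0.123, adjusted p = 0.00897, edgeR). ATP5F1D, the delta subunit of the complex V rotor, stood at 574 and 615 CPM in siNC, against 977 and 736 CPM in siYAP1 (log2 0.50, adjusted p = 0.0119, edgeR). ATP5MC2, of the membrane ring, stood at 269 and 287 CPM in siNC, against 419 and 356 CPM in siYAP1 (log2 0.45, adjusted p = 0.00945, edgeR). In all 3 both siYAP1 libraries lay above both siNC libraries, and siYAP1 replicate 1 was the higher of its pair. NDUFB7, NDUFS8, NDUFB11 and NDUFS7 of complex I and UQCR11 and UQCRQ of complex III rose by 0.34 to 0.44, with adjusted p of 0.0163 to 0.0393 (edgeR). NDUFS7 and NDUFS8 are core iron-sulfur subunits on the path to ubiquinone. Both siYAP1 libraries lay above both siNC libraries for 47 of 79 members, against 30.4% of all genes, and below for 8, against 28.3%.

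**Figure D3:**
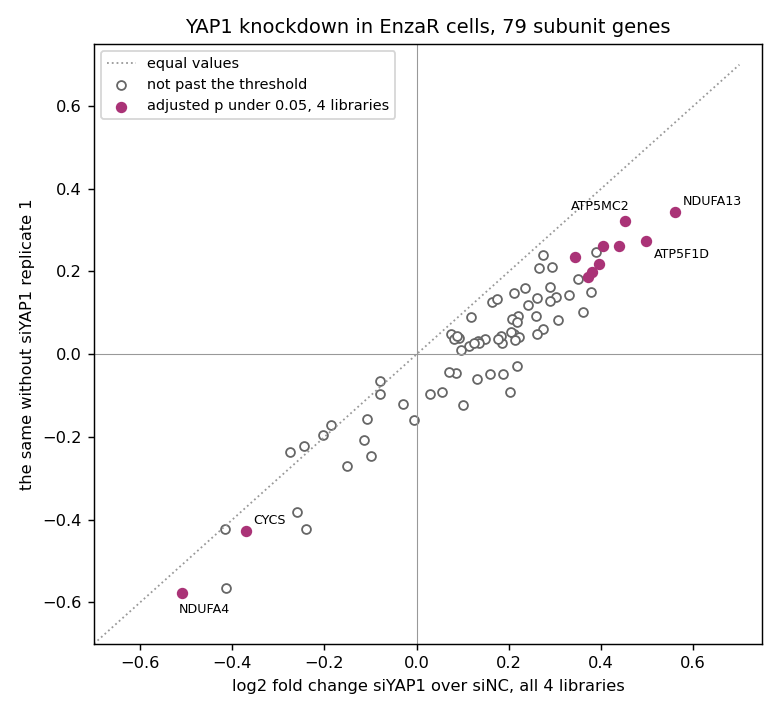
Log2 fold change of siYAP1 over siNC for 79 genes with all 4 EnzaR libraries (x axis) and without siYAP1 replicate 1 (y axis), with the 11 called members filled and the dotted line at equal values. The 9 that rose lie below the line, nearer to 0 without that library, while NDUFA4 and CYCS stay near their values.

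The siYAP1 libraries also differed from each other in these genes. Replicate 2 was lower than replicate 1 by more than 0.32 on the log2 scale in 15 of 79 members, against 3.79% of 8871 genes, with a member median of -0.22. Between the siNC replicates 5 of 78 members were higher by more than that in replicate 2, against 6.67% of 9130 genes, and 0 were lower, against 3.12%, with a median of 0.10.

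Values after knockdown also followed GC content, with rho of 0.72 across members and 0.50 across all genes. The 39 members above the median GC content had a median of 0.27 on the log2 scale, and the other 40 of 0.06. With GC content and length corrected for, 8 of 79 members rose and 0 fell, against 313 and 196 of 14547 genes. Of these 8, 1 was among the 11 uncorrected calls, ATP5MC2 at 0.38 (adjusted p = 0.0198, edgeR). The 7 others were ATP5F1E, NDUFA10, ATP5MC3, NDUFA9, COX6C, ATP5MG and COX7C, at 0.35 to 0.46. Scaling by library totals instead of TMM moved the median of all genes from -0.03 to -0.13, and then 5 members rose and 6 fell, with 17.0% of all calls higher instead of 48.4%. Of the 9 that rose, 5 (NDUFA13, NDUFB7, NDUFS7, ATP5F1D and UQCR11) lie on chromosome 19, which holds 10 of the 79 genes. Of all 1096 genes tested there, 16.1% rose and 1.46% fell, and their median GC content was 59.3%. Elsewhere 4 of 69 members rose and 2 fell. That position was noticed after the values were seen.

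**Figure D4:**
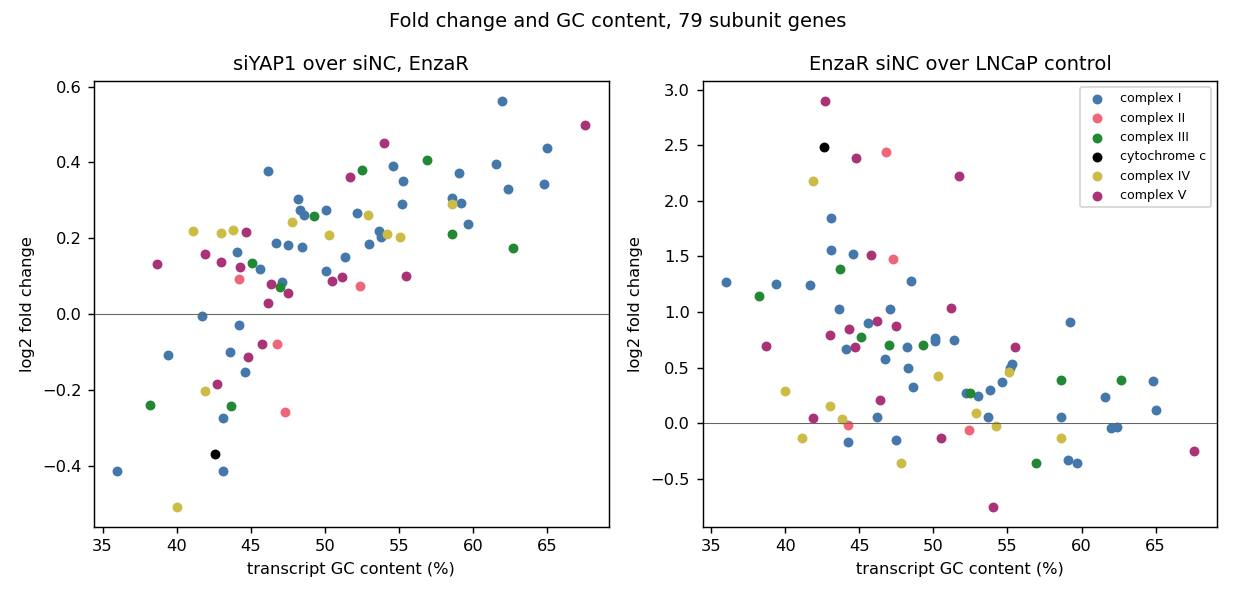
Log2 fold change (y axis) against transcript GC content in percent (x axis) for 79 genes coloured by complex, for siYAP1 over siNC in EnzaR cells (left) and EnzaR siNC over LNCaP control (right). Values rise with GC content on the left (rho 0.72) and fall with it on the right (rho -0.48).

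Pathway genes outside the rule moved in both directions after knockdown, beside 5.83% of all genes that rose and 6.22% that fell. Of 75 mitochondrial ribosomal proteins 13 rose and 1 fell, the latter being MRPL32 at -0.65 (adjusted p = 0.00297, edgeR). Of 17 tricarboxylic acid cycle and pyruvate dehydrogenase genes 1 rose, and DLD, DLAT and SUCLG2 fell by 0.44, 0.36 and 0.38. Of 50 assembly factors 5 rose and 1 fell, and of 13 regulators 0 rose and PPARGC1B, a co-activator of mitochondrial genes, fell by 0.57 (adjusted p = 0.0443, edgeR). Of 13 mitochondrially encoded mRNAs MT-ND2 rose by 0.38 and MT-ND4L fell by 0.43. These calls use all 4 EnzaR libraries without the GC and length correction, and were not counted without siYAP1 replicate 1. Between the siYAP1 replicates, 63 of 73 ribosomal proteins were lower in replicate 2, against 49.4% of all genes, with a median of -0.14.

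In LNCaP cells the vesicle comparisons ask whether EVs from EnzaR cells, and the YAP1 or CII status of their source, go with a change in the recipients. There is 1 library per group, so no test was made, and a member was counted when its log2 ratio passed 0.32 in either direction. The 95% exact binomial intervals cover counting error only. NDUFA7, of complex I, stayed under the floor of 10 CPM, leaving 78 members.

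Most subunit transcripts were somewhat lower in EV-siNC than in control. The ratio was below 0 on the log2 scale for 68 of 78 members (87.2%), against 57.4% of 9056 genes, with a median of -0.19 beside -0.04. Past the threshold of 0.32, 12 members were lower, against 4.01% of all genes, and 2 were higher, against 13.6%. The 12 included ATP5MK, a small complex V subunit, at 56.9 CPM in control and 40.3 CPM in EV-siNC, a log2 ratio of -0.50 (-0.63 to -0.36). NDUFB8, NDUFB3, NDUFC1 and NDUFB1, all of complex I, were at -0.49, -0.44, -0.41 and -0.39. All 11 complex IV members were below 0, between -0.26 and -0.06. The 2 higher members were ATP5F1C, at 21.3 CPM in control and 32.6 CPM in EV-siNC (log2 0.61, 0.43 to 0.80), and NDUFS1, at 36.6 and 47.5 CPM (log2 0.38, 0.23 to 0.52).

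The 3 EV libraries share that 1 control, so their differences from it are not independent. Control lay above all 3 for 65 of 79 members (82.3%), against 40.8% of 8730 genes, and below all 3 for 9, against 30.0%. Between the siYAP1 replicates of the other line, 15 of 79 members were lower past the same threshold. The ratios had a rho with GC content of -0.18 across members and -0.55 across all genes. With exonic length, rho was 0.35 across members and 0.36 across all genes, whose median lengths were 2404 and 4934 bases. With GC content and length corrected for, 18 members were lower and 1 higher. The share of all genes lower in that setting is not given here. Scaling by library totals left 4 members lower, and no member was lower past 1.5-fold, while ATP5F1C was higher.

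Among cells given vesicles, the source's siRNA went with small differences. In EV-siYAP1 against EV-siNC 1 of 78 members was higher past the threshold and 0 were lower, against 4.06% and 3.85% of 9136 genes, and the member median was -0.01. That member was NDUFA5, an accessory subunit of complex I, at 10.9 CPM in EV-siNC and 17.4 CPM in EV-siYAP1 (log2 0.66, 0.41 to 0.93). It was at 11.2 CPM in control and 13.3 CPM in EV-siCII. The next largest ratios were NDUFB5 at 0.26 and NDUFB8 at 0.23. In EV-siCII against EV-siNC 0 members passed in either direction, against 2.08% higher and 3.21% lower of 9072 genes, with a median of 0.01. Its largest ratios were NDUFA5 at 0.28 (0.01 to 0.56), NDUFC1 at 0.25 (0.08 to 0.42) and NDUFA6 at -0.22 (-0.38 to -0.07).

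**Figure D5:**
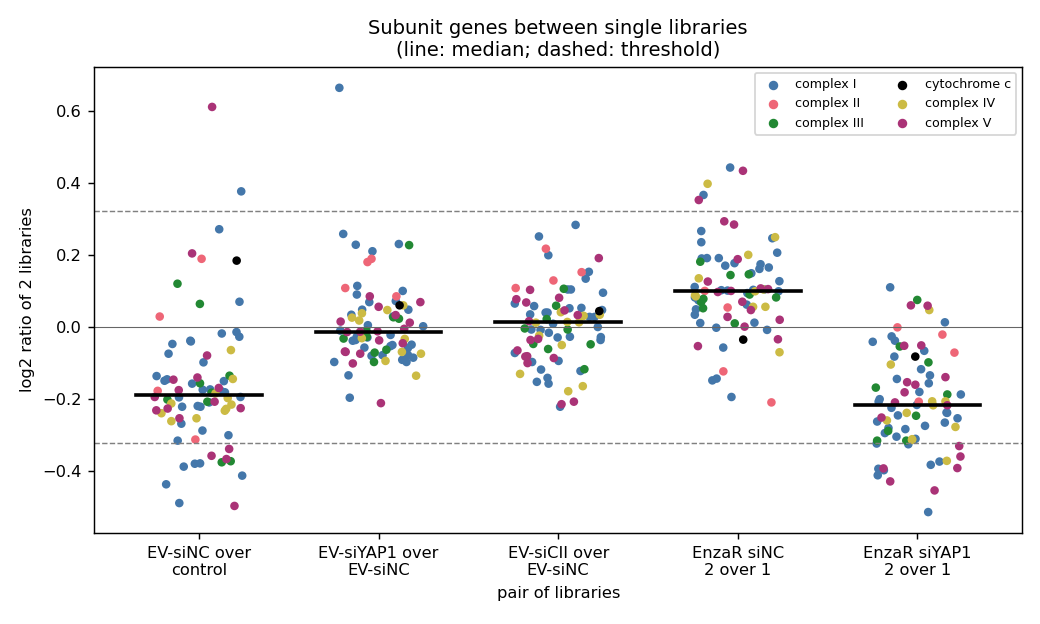
Log2 ratio of CPM (y axis) of each subunit gene between 2 single libraries for 5 pairs (x axis), coloured by complex, with the median as a line and the threshold of 0.32 dashed. The medians of EV-siNC over control (-0.19) and of siYAP1 replicate 2 over 1 (-0.22) are alike in size, while those of the EV libraries against EV-siNC are near 0.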

How the data were processed

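RNA was sequenced from 4 EnzaR and 4 LNCaP libraries, grouped by their labels. The table deposited by the authors holds raw read counts per Ensembl gene and FPKM. The build hg19 (GRCh37) and the tools HISAT2 2.0.1, cutadapt 1.9.1, DESeq2 and HTSeq 0.6.1 are named in the submitters' processing notes. No annotation release or strand setting is given there, so overlapping genes cannot be told apart. The deposited FPKM equalled count over exonic length and column total for 463240 of 463240 values within 0.0051. Symbols came by identifier for 39538 genes. Member counts lay between 81 and 30094 per library, and those of the pseudogenes left out reached at most 14, so reads of near-identical copies may have been lost or split.

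Counts were tested by robust quasi-likelihood in edgeR 4.0.16 under R 4.3.3, after filterByExpr and TMM scaling, with Benjamini-Hochberg adjustment over all genes at 0.05. No library was a copy of another: the lowest chi-square per degree of freedom of any pair was 4.71. Single libraries were compared by log2 ratio of TMM-scaled CPM with a prior count of 2 and a floor of 10 CPM in either library. Printed CPM are TMM-scaled over 8 libraries, log2 values by each comparison's own scaling, which differed by up to 0.0396 on the log2 scale within EnzaR. The GC and length correction is a smooth surface per library (mgcv 1.9.3), with GC content from a GRCh38 annotation for 97.3% of genes tested. Alternatives were DESeq2 1.42.0, other scalings, filters and thresholds, all 8 libraries, a replicate block and each replicate left out. In data simulated for siYAP1 against siNC (14735 genes), the test recovered 100% of 2-fold and 83% of 1.5-fold changes, and 3.68% of calls were false. The simulation gave all genes 1 common dispersion and placed changes only in genes with higher counts. It held no shift between replicates or with GC content, which the real libraries show. The share of false calls in the real data was therefore not measured. Members and lists were chosen with earlier results of these data known. The rule for naming took members past the threshold (the 12 largest per direction after knockdown, the 8 largest between lines), the 5 largest per direction past the threshold in LNCaP or else the 3 largest, the highest and lowest FPKM per complex, and up to 3 genes per list. Other members were named to complete a complex, after their values were seen. Some luminal markers are not reported here.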

Additional observations from a re-analysis of the deposited data

How the results depend on the processing

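Without 1 replicate each, siYAP1 against siNC gave 0 to 30 members higher and 0 to 3 lower, medians of 0.042 to 0.313, and 15 to 940 genes higher and 11 to 829 lower. The 0 and 0.042 are without siYAP1 replicate 1, and the 30 (with 1 lower) without siYAP1 replicate 2. Without siNC replicate 1 there were 1 higher and 3 lower, and without siNC replicate 2, 11 and 1. The lone library then left is taken to vary as the other group does. The correction for GC content and length gave 313 genes higher and 196 lower, with 0 members lower. Library totals gave 291 and 1416 genes and 5 and 6 members, no filter 17 and 4 members, and DESeq2 567 genes lower and 11 and 2 members. Nothing in the labels says that replicate numbers pair the libraries, and deviations of same-numbered libraries correlated at -0.20 over 9429 genes. A replicate block gave 564 genes higher and 6 and 2 members, with the GC and length correction 370 and 268 genes and 12 and 0 members. With crossed numbers, an alternative chosen after seeing the data, it gave 1518 genes higher and 1302 lower, and 28 and 7 members. For EnzaR against LNCaP, leaving out an siNC replicate gave 41 to 47 members higher and 1 to 5 lower, the 1 without siNC replicate 1, and the spread then comes from the siYAP1 pair alone. The GC and length correction gave 14 lower and a median of 0.245, and turned the sign of ATP5F1E (-0.48), ATP5MJ (-0.063), NDUFV1 (0.029), UQCRFS1 (-0.037), ATP5MK (-0.018), NDUFB1 (-0.026) and NDUFA4 (-0.91). All 8 libraries gave 68 members higher and 1 lower, beside 6315 and 6514 genes, and a median of 0.81. They turned UQCR11 (0.036) and NDUFB11 (0.045). For EV-siNC against control, the correction gave 341 genes higher and 1 member higher. A floor of 1 CPM gave 3030 genes higher and 1350 lower, library totals 164 genes and 4 members lower, and 1.5-fold 239 and 27 genes and 1 and 0 members. For EV-siYAP1 against EV-siNC the floor gave 1642 and 1519 genes, and 1.5-fold 31 and 36. For EV-siCII against EV-siNC these were 1347 and 1476, and 7 and 36, and the correction gave 1 member higher. Fewer libraries or a stricter threshold change counts by construction; otherwise the cause was not tested. Depth limited NDUFA7, the member with the fewest counts, and single libraries give no replicate error.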
